A study of Mus musculus with 18 samples.

Results

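The genes described here are innate DNA sensors, their partners and the Ifi200 gene cluster, 10 genes of the 55414 in the count table: Ifi203, Ifi204, Ifi207, Mndal and Ifi211 of the cluster, with Cgas, Sting1, Trex1, Samhd1 and Sp100. They were chosen by name with their differences between siRNA groups and media in these same libraries known, so those differences chose them. Counts of changed genes are therefore descriptions, and an FDR only labels a call. Of the 10 genes, 9 reached the minimum of 10 counts, summed over the 18 libraries, that a gene needed to be tested, and Trex1 did not.

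Cells sense DNA in the wrong place with dedicated proteins. cGAS binds double-stranded DNA and makes the cyclic dinucleotide cGAMP, which binds STING in the endoplasmic reticulum membrane and starts the signalling that ends in type I interferon and inflammatory cytokines. Proteins of the Ifi200 or PYHIN family carry a DNA-binding HIN domain, most of them next to a pyrin domain, and many are themselves induced by interferon. TREX1, an exonuclease for cytosolic DNA, and SAMHD1, which hydrolyses deoxynucleotides, limit the pathway, and SP100 is a component of PML nuclear bodies.

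The cells were C2C12 myotubes, made from an established line of mouse myoblasts. Confluent myoblasts of every group were transfected with pooled siRNAs, either non-targeting (siNtc), against Erk3 (siErk3) or against Mk5 (siMk5), and differentiated for 6 days. A 16 h exposure to 0.5 mM palmitic acid bound to BSA (PA), or to BSA alone, followed in medium without serum, which gives 6 groups of 3 libraries. All 18 libraries thus come from 1 line that received siRNA and transfection reagent, and the labels do not tell if replicates came from separate cultures, so p-values measure the spread between libraries, which may be technical.

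The total count of read pairs per library lay between 13041979 and 28496727. Mapk6, which encodes Erk3, fell with siErk3 by 1.20 on the log2 scale in BSA and by 0.95 in PA. Mapkapk5, which encodes Mk5, differed with siMk5 by -0.61 (95% CI -1.03 to -0.18, edgeR FDR = 0.469) in BSA and by -0.49 (-0.85 to -0.12, FDR = 0.469) in PA. It had few read pairs, 36, 61 and 49 in siNtc BSA and 27, 40 and 33 in siMk5 BSA, which widens these intervals. At the protein level, the study reports efficient silencing of both kinases by Western blot. The 9 myotube markers were all expressed, with a summed level of 9303 to 12251 CPM (counts scaled to a common library size, edgeR's TMM-normalized CPM). That sum was 11077 to 12251 CPM in siErk3 BSA against 9999 to 10672 in siNtc BSA, and 10153 to 10822 in siErk3 PA against 9303 to 9460 in siNtc PA. The markers did not all move alike. In BSA the means of Myh3 (3193.6 against 2431.5 CPM), Myh8, Acta1, Ckm and Des were higher with siErk3 than with siNtc. Those of Tnnt3 (832.4 against 926.0 CPM), Mb (331.2 against 387.0 CPM), Myog and Mymk were lower. The part of these differences in the results was not tested. In bulk RNA, fewer cells of a type and less RNA per cell cannot be told apart. Among 9 immune cell markers, Ptprc reached at most 1 count in a library, Adgre1 was at 0 in all 18, and the summed level was 7.25 to 9.45 CPM, most of it Cd14. Endothelial markers summed to 0.125 to 1.12 CPM. The share of counts on 18S ribosomal RNA was 1.5% to 2.96% in siErk3 BSA, 2.56% to 7.17% in siNtc BSA and 8.39% to 12.87% in siMk5 BSA. In PA it was 3.74% to 6.77% with siErk3, 5.32% to 6.43% with siNtc and 1.71% to 6.69% with siMk5. The siMk5 effect on the 18S gene was lower in PA than in BSA (log2 difference -1.68, SE 0.45, edgeR FDR = 0.151). The part of 18S in the results was not tested beyond leaving that gene out.

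The cluster members share a short stretch just before the annotated start of their main transcript. Windows ran from 250 bases before to 50 bases after the annotated start of each gene's main transcript (GENCODE M39, GRCm39). In them the core of the interferon-stimulated response element, GAAANNGAAA on either strand, occurred once in each of the 5 cluster members. It occurred in none of the other 5 genes. The same core occurred in 538 of 14994 promoters of protein-coding genes (3.59%). The cluster genes are related by descent, so these are not 5 separate occurrences. Many genes of this family are induced by interferon, so the match is not independent of the choice by name. Windows of 60 bases around the match are shown for the 5 cluster members, since they carry this shared feature. All lie on the minus strand and are written 5′ to 3′ with the match in capitals. Their positions are chr1:173770059-173770118 (Ifi203), chr1:173707755-173707814 (Mndal), chr1:173594612-173594671 (Ifi204), chr1:173740615-173740674 (Ifi211) and chr1:173569382-173569441 (Ifi207).
Ifi203: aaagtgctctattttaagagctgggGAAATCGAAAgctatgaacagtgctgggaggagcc
Mndal: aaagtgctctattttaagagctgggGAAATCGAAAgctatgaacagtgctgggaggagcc
Ifi204: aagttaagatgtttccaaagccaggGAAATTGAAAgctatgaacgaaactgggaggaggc
Ifi211: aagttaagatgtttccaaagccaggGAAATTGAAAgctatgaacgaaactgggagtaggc
Ifi207: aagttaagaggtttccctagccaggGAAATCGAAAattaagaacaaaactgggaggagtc

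The windows of Ifi203 and Mndal were identical over the 60 bases, and those of Ifi204 and Ifi211 differed at 1 base. The Ifi207 window differed from Ifi204 at 9 bases and from Ifi211 at 10. The Ifi203 window differed at 18 to 21 bases from those of Ifi204, Ifi211 and Ifi207. The match began 57 bases before the start of the main transcript in Ifi203, 54 in Mndal, 37 in Ifi211, 36 in Ifi204 and 33 in Ifi207. The annotated genes of Ifi203 and Mndal extend further upstream, to bases 173770436 and 173708447 of the chromosome. In these genes the match thus lies inside the annotated gene. Of 8 further PYHIN genes whose promoter was read, 5 held the same core (Ifi205, Ifi206, Ifi208, Ifi213 and Ifi214). A second interferon-related core, TTCNNNGAA, occurred in 2 of the 10 genes and in 7.55% of all promoters, and a loose form of the NF-kappaB motif, GGGNNNNNCC, in 5 of the 10 and in 61.9%. A match describes the letters only and is neither a binding site nor a cause.

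**Figure D1:**
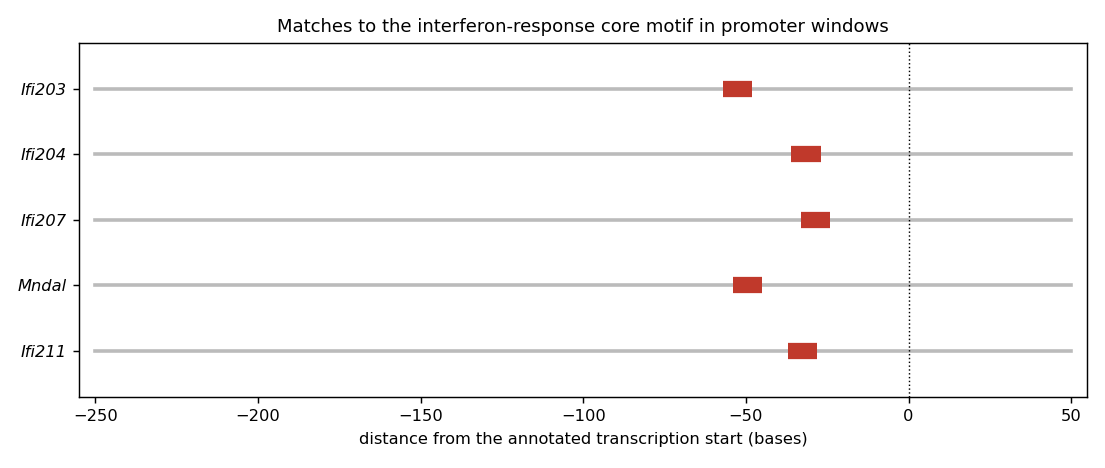
Positions of the GAAANNGAAA match (red) in the promoter window (grey line) of the 5 cluster members, in bases from the annotated start of the main transcript (dotted line). All 5 matches lie before that start, beginning between 57 and 33 bases from it. The annotated genes of Ifi203 and Mndal extend further upstream than their matches.

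The same relatedness limits how well the transcripts can be told apart. Of all 100-base stretches of the main transcript, 56.9% of Ifi211 also occur in transcripts of other genes, among them Ifi204, Ifi205, Ifi207 and Mndal, against 15.9% of Ifi204, 12.1% of Mndal, 7.44% of Ifi203 and 0.795% of Ifi207. Read pairs that fit 2 places could be counted at a mapping quality of 3, so the Ifi211 values in particular can hold pairs from relatives. Sp100 shared 5.05% of its stretches with other genes, and Cgas, Sting1 and Samhd1 shared none.

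Trex1 had 0 counts in all 18 libraries. All of its 1147 exonic bases, at chr9:108887001-108888802 of GRCm39 on the minus strand, also belong to exons of Atrip on the same strand, and featureCounts leaves pairs that overlap exons of more than 1 gene unassigned. The level of Trex1 was thus not measurable in this table, and its 0 is no statement about expression. Atrip, whose remaining exons are unique, had 202 to 587 counts per library.

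With palmitic acid, all 5 cluster members, Cgas and Sp100 rose in each siRNA group, while Sting1 and Samhd1 stayed near their BSA levels in siNtc. In siNtc, 7 of the 9 tested genes rose and none fell, against 15.5% of all 21772 genes tested that rose. The counts were 7 of 9 in siErk3, where 15.8% of all genes rose, and 7 of 9 in siMk5, where 15.1% rose. In siMk5 Samhd1 fell as well, where 14.6% of all genes did. Both an FDR below 0.05, from edgeR's quasi-likelihood test over all genes, and a fold change above 1.3 were needed to call a gene higher or lower. The median log2 fold change of the 9 genes was 1.78 in siNtc, beside -0.03 over all genes.

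Ifi207 showed the greatest fold difference between media of the 9 genes. It stood at 1.83, 1.83 and 1.28 CPM in the siNtc BSA libraries and at 31.9, 31.9 and 35.9 CPM in siNtc PA. Every PA library lay above every BSA library, a log2 fold change of 4.34 (SE 0.17, 95% CI 4.0 to 4.68, edgeR FDR = 9.72e-20). The interval did not overlap that of any other member. The BSA levels rest on few read pairs, which widens the error of each value that uses them.

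Ifi203 rose from 20.7, 24.3 and 21.9 CPM in siNtc BSA to 172.5, 163.0 and 193.1 CPM in siNtc PA, a log2 fold change of 2.97 (SE 0.08). Mndal, which shares its 60-base promoter window with Ifi203, rose from 6.60, 5.13 and 6.15 to 39.5, 43.6 and 45.2 CPM (log2 2.86, SE 0.10). The 95% intervals of these log2 fold changes overlapped, 2.81 to 3.14 for Ifi203 and 2.66 to 3.06 for Mndal.

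Ifi204 encodes p204, the mouse PYHIN protein often set beside human IFI16. It rose from 36.5, 29.5 and 31.1 CPM in siNtc BSA to 108.7, 103.4 and 118.5 CPM in siNtc PA (log2 fold change 1.78, SE 0.08). Ifi211 rose from 15, 14.4 and 13 to 55.6, 55 and 60.6 CPM (log2 2.02, SE 0.07), with the sharing of reads noted above. The 95% intervals of these log2 fold changes touched, 1.63 to 1.94 and 1.87 to 2.17, and both lay below those of Ifi203 and Mndal. Ifi207, whose window differed from those of Ifi204 and Ifi211 at 9 and 10 bases, had a log2 fold change of 4.34. A link between window and response was not tested.

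Summed over the 5 cluster members, the level was 76.4 ± 3.75 CPM (SD, n = 3) in siNtc BSA and 419 ± 29.9 (SD, n = 3) in siNtc PA. With siErk3 the sums were 95.6 ± 4.66 and 524 ± 38.5 CPM, and with siMk5 75.3 ± 0.87 and 302 ± 30.0 CPM (SD, n = 3 each). Medium separated these sums without overlap in each siRNA group, and in PA the 3 siRNA groups did not overlap one another.

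Cgas, the enzyme that makes cGAMP, stood at 6.88, 5.46 and 5.96 CPM in siNtc BSA and at 13.4, 14.7 and 16.8 CPM in siNtc PA. The groups did not overlap, and the log2 fold change was 1.31 (SE 0.11, edgeR FDR = 2.83e-11). Sting1, the adaptor that binds cGAMP, ranged only from 19.1 to 22.7 CPM over all 18 libraries. Its log2 fold change with PA was 0.08 in siNtc (95% CI -0.06 to 0.22), -0.10 in siErk3 (-0.23 to 0.03) and -0.08 in siMk5 (-0.22 to 0.06). In no siRNA group did the interval of Cgas overlap that of Sting1.

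Samhd1 stood at 61.0, 62.0 and 62.5 CPM in siNtc BSA and at 63.9, 57.2 and 56.6 in siNtc PA, where the groups overlapped (log2 fold change -0.06, 95% CI -0.18 to 0.06). In siMk5 it was at 60.1, 62.3 and 60.7 CPM in BSA and at 45.5, 44.0 and 49.3 in PA, without overlap. The log2 fold change there was -0.40 (SE 0.06, edgeR FDR = 1.56e-06), and without siMk5 PA replicate 2 it was -0.37, under the fold criterion. Sp100 rose from 8.43, 7 and 6.24 CPM in siNtc BSA to 22.7, 21.1 and 24.1 in siNtc PA (log2 1.67, SE 0.11).

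**Figure D2:**
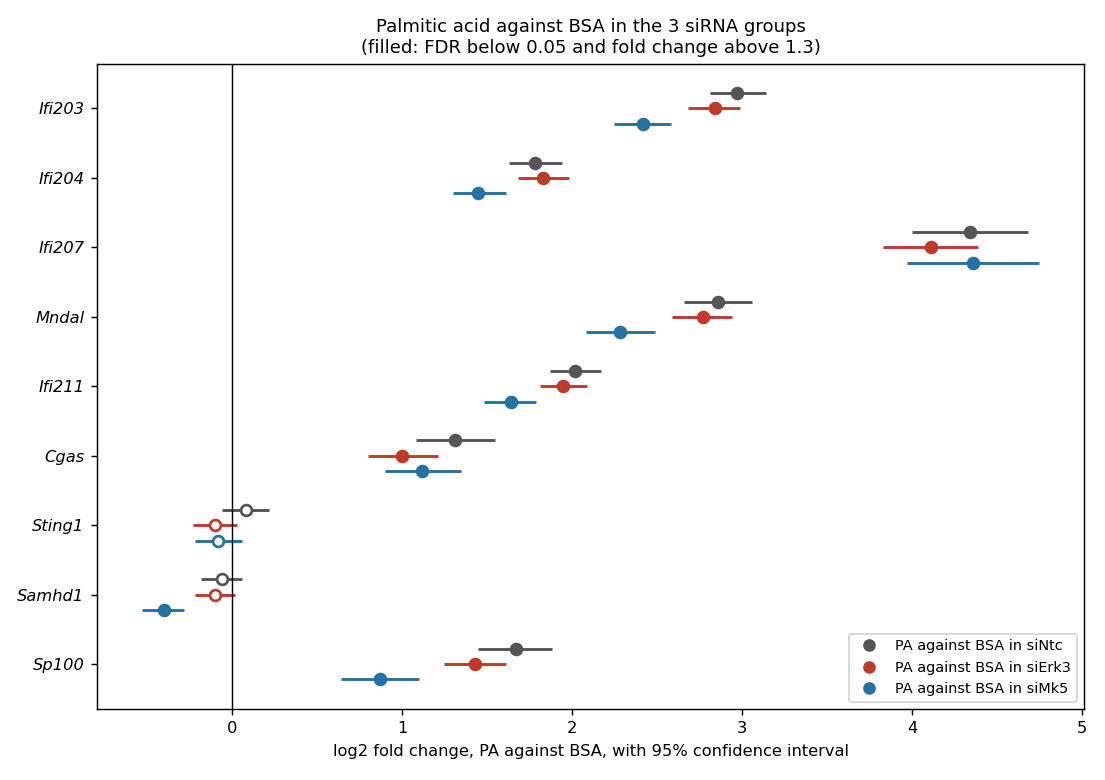
Log2 fold change of PA against BSA (x axis) for the 9 measured genes in siNtc (grey), siErk3 (red) and siMk5 (blue), with 95% confidence intervals; filled points passed both criteria. Ifi207 lies furthest to the right in every siRNA group, and Sting1 lies at 0 within its interval in each.

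Levels can be compared between genes only per length. In siNtc BSA the mean level per kilobase of exon was highest for Ifi204 (9.08 CPM per kb), followed by Ifi211 (7.91), Sting1 (7.42), Samhd1 (6.76), Ifi203 (3.33), Mndal (1.66), Cgas (1.48), Sp100 (0.956) and Ifi207 (0.481). In siNtc PA the order was Ifi211 (32.0), Ifi204 (30.9), Ifi203 (26.3), Mndal (11.9), Ifi207 (9.71), Sting1 (7.84), Samhd1 (6.48), Cgas (3.63) and Sp100 (2.99). By this measure all 5 cluster members stood above Sting1 in siNtc PA, where only Ifi204 and Ifi211 did in siNtc BSA. Exon lengths count every annotated exon, so a gene with many rarely used exons gets a lower value. Samhd1 has 9150 exonic bases but a main transcript of 3928. The lengths are 3561 and 2421 for Ifi204, 2741 and 2301 for Sting1, and 1785 in both cases for Ifi211. The order can therefore change with the length used, and the order by main transcript was not computed. The Ifi211 values can also hold pairs from relatives.

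**Figure D3:**
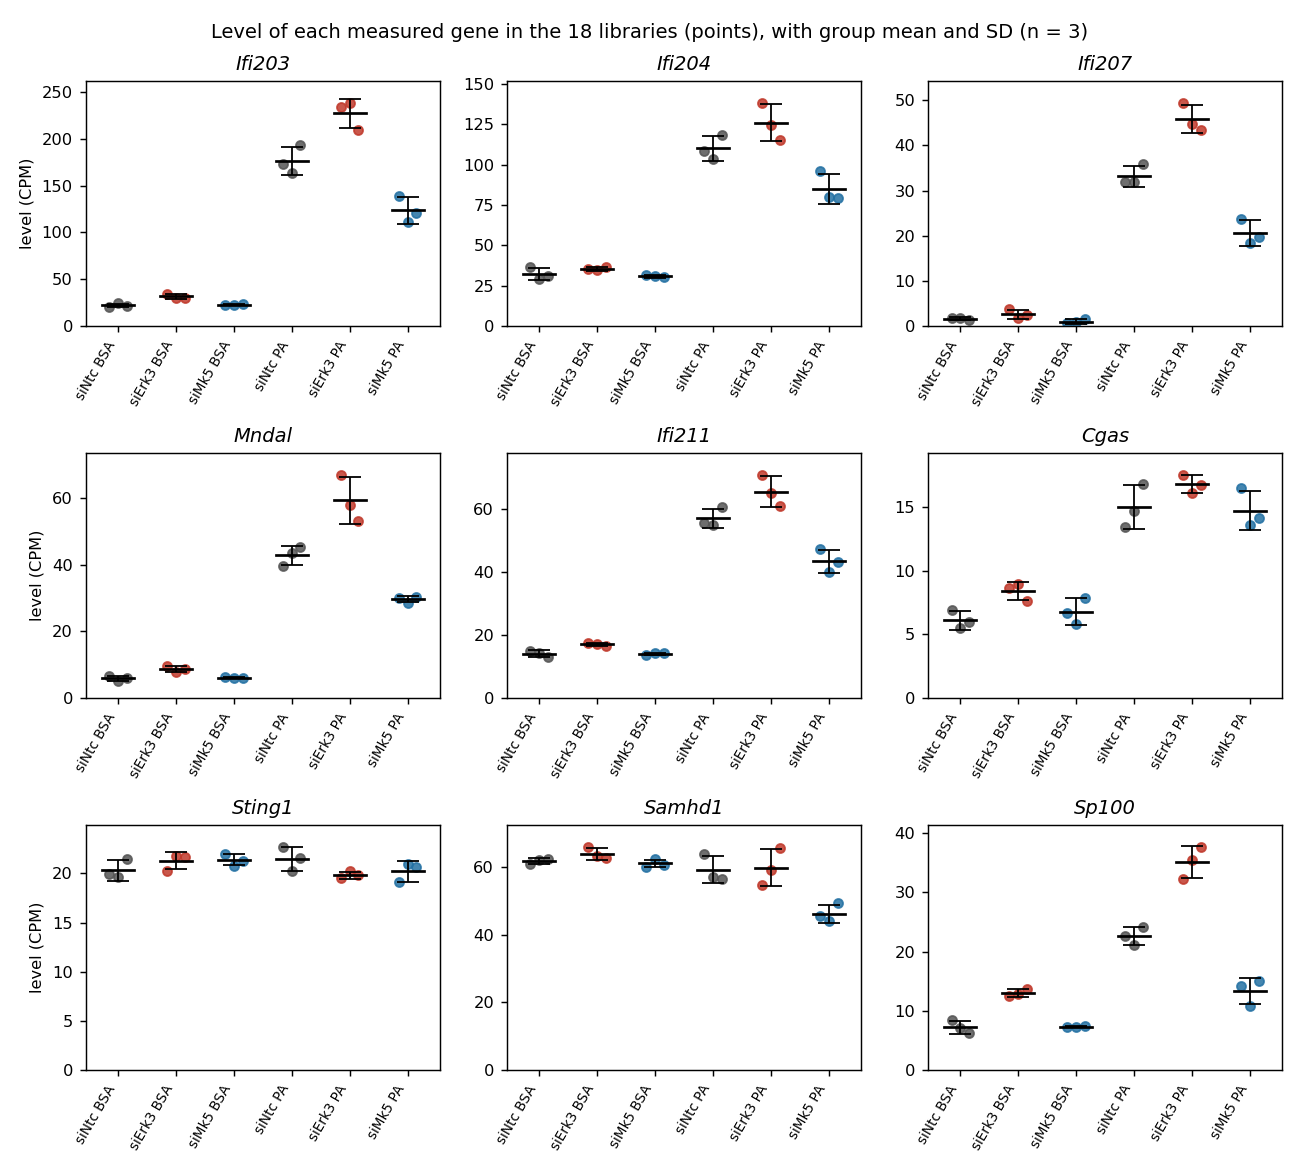
Level in CPM (y axis, linear from 0) of each measured gene in the 18 libraries (points) by siRNA group and medium, with the mean (horizontal line) and SD (bars) of 3 libraries. In PA the siMk5 points of Ifi203, Ifi207, Mndal and Sp100 lie below the siNtc points and the siErk3 points above them, while Sting1 stays between 19.1 and 22.7 CPM.

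Erk3 silencing went with higher levels of Sp100 and of part of the cluster in both media. In BSA, 4 of the 9 genes rose with siErk3 against siNtc (Sp100, Mndal, Ifi203 and Cgas) and none fell, against 0.588% of all genes that rose. In PA, 3 of the 9 rose (Sp100, Mndal and Ifi207) and none fell, against 0.432% of all genes. The median log2 fold change of the 9 genes was 0.48 in BSA, beside 0.02 over all genes, and 0.20 in PA. By DESeq2 the counts were 4 and 2.

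Sp100 had the largest of these values that passed. It stood at 12.5, 12.9 and 13.7 CPM in siErk3 BSA, above the 6.24 to 8.43 CPM of siNtc BSA, a log2 fold change of 0.88 (SE 0.11, edgeR FDR = 1.28e-05). In PA it stood at 32.3, 35.5 and 37.7 CPM with siErk3, above the 21.1 to 24.1 of siNtc (log2 fold change 0.64, SE 0.08, FDR = 1.77e-05). No siErk3 library overlapped the siNtc libraries of its medium.

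Ifi203 was at 34.6, 30.4 and 30.6 CPM in siErk3 BSA (log2 fold change against siNtc 0.50, SE 0.09, edgeR FDR = 0.000824). In siErk3 PA it was at 234.1, 237.7 and 209.7 CPM, again above every siNtc library, with a log2 fold change of 0.37 (SE 0.07, FDR = 0.00173) that lay just under the fold criterion and passed it without siNtc PA replicate 3 (0.44) or without siErk3 PA replicate 3 (0.43). Mndal was at 9.68, 7.84 and 8.66 CPM in siErk3 BSA (log2 0.57, SE 0.12, FDR = 0.00566), a call lost without siNtc BSA replicate 2 (0.46). In siErk3 PA it was at 66.9, 57.9 and 53.2 CPM (log2 0.47, SE 0.07, FDR = 0.000159). Neither gene overlapped between siErk3 and siNtc in either medium.

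Ifi207 was at 49.3, 44.7 and 43.3 CPM in siErk3 PA, above all siNtc PA libraries (log2 fold change 0.46, SE 0.10, edgeR FDR = 0.0112). That call was lost without siNtc PA replicate 1 (0.44) or replicate 2 (0.44) and by DESeq2 (log2 0.47, FDR = 0.398). In BSA it was at 3.72, 1.81 and 2.43 CPM with siErk3, which overlapped siNtc (log2 0.69, 95% CI 0.19 to 1.20, FDR = 0.259). Ifi204 and Ifi211 passed in neither medium. The log2 fold changes of Ifi204 were 0.15 (95% CI -0.02 to 0.31) in BSA and 0.19 (0.05 to 0.33) in PA, and those of Ifi211 were 0.27 (0.10 to 0.44) and 0.20 (0.08 to 0.33).

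Cgas was at 8.62, 8.94 and 7.58 CPM in siErk3 BSA, without overlap with siNtc BSA (log2 fold change 0.48, SE 0.12, edgeR FDR = 0.0429). The call was close to the threshold: with the 18S gene left out of library sizes it was lost (log2 0.46, FDR = 0.0642), and it was lost without siNtc BSA replicate 2 (0.39) or 3 (0.47) and without siErk3 BSA replicate 1 (0.46) or 2 (0.44). In PA, Cgas was at 17.5, 16.1 and 16.7 CPM with siErk3, which overlapped siNtc (log2 0.17, 95% CI -0.03 to 0.36). Sting1 and Samhd1 differed by 0.06 and 0.05 in BSA and by -0.12 and 0.01 in PA on the log2 scale, with FDR values from 0.682 to 0.992.

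With Mk5 silencing, Sp100 and most of the cluster were lower in PA, and no gene of the group passed in BSA. Whether the effect differed between media is a separate test, the interaction, and its values follow the comparison of siErk3 with siMk5. In BSA, 0 of the 9 genes passed with siMk5 against siNtc, against 0.0643% of all genes in either direction. By edgeR 1 of the 9 had an unadjusted p below 0.05 (Ifi207), and DESeq2 also called 0. In PA, 5 of the 9 fell (Sp100, Ifi207, Mndal, Ifi203 and Ifi211) and none rose, against 0.491% of all genes that fell. The median log2 fold change of the 9 genes was 0.03 in BSA and -0.39 in PA. These comparisons share the siNtc libraries with those of siErk3.

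Sp100 was at 14.2, 10.8 and 15 CPM in siMk5 PA, below the 21.1 to 24.1 of siNtc PA, and its log2 fold change was -0.76 (SE 0.09, edgeR FDR = 4.05e-06). In siMk5 BSA its libraries, at 7.24, 7.20 and 7.38 CPM, lay within the siNtc range (log2 0.03, 95% CI -0.22 to 0.29). Ifi207 was at 23.7, 18.3 and 19.7 CPM in siMk5 PA, below every siNtc PA library (log2 -0.69, SE 0.11, FDR = 0.000145). In siMk5 BSA it was at 0.611, 0.906 and 1.55 CPM (log2 -0.71, 95% CI -1.36 to -0.06, FDR = 0.669), where few read pairs leave a wide interval.

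Mndal was at 29.9, 28.6 and 30.3 CPM in siMk5 PA, below the lowest siNtc PA library at 39.5 (log2 fold change -0.53, SE 0.08, edgeR FDR = 4.91e-05). Ifi203 was at 139.1, 110.9 and 120.6 CPM, also below all siNtc PA libraries (log2 -0.51, SE 0.07, FDR = 1.31e-05). Ifi211 was at 47.3, 40.1 and 43.0 CPM (log2 -0.39, SE 0.06, FDR = 0.000311), a call lost under the fold criterion without siNtc PA replicate 3 (-0.35) or siMk5 PA replicate 2 (-0.34).

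Ifi204 and Samhd1 passed the FDR but not the fold criterion in siMk5 PA. Ifi204 was at 95.8, 80.1 and 79.3 CPM, below every siNtc PA library (log2 fold change -0.37, SE 0.07, edgeR FDR = 0.00202). It passed both criteria without siNtc PA replicate 1 (-0.38) or 2 (-0.42), without siMk5 PA replicate 1 (-0.47), and by DESeq2 (-0.38). Samhd1 had a log2 fold change of -0.36 (SE 0.06, FDR = 0.000494) and passed both without siNtc PA replicate 2 (-0.38) or 3 (-0.39) or siMk5 PA replicate 3 (-0.41). Cgas and Sting1 overlapped between siMk5 and siNtc in PA, with log2 fold changes of -0.02 (95% CI -0.22 to 0.18) and -0.09 (-0.23 to 0.05).

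**Figure D4:**
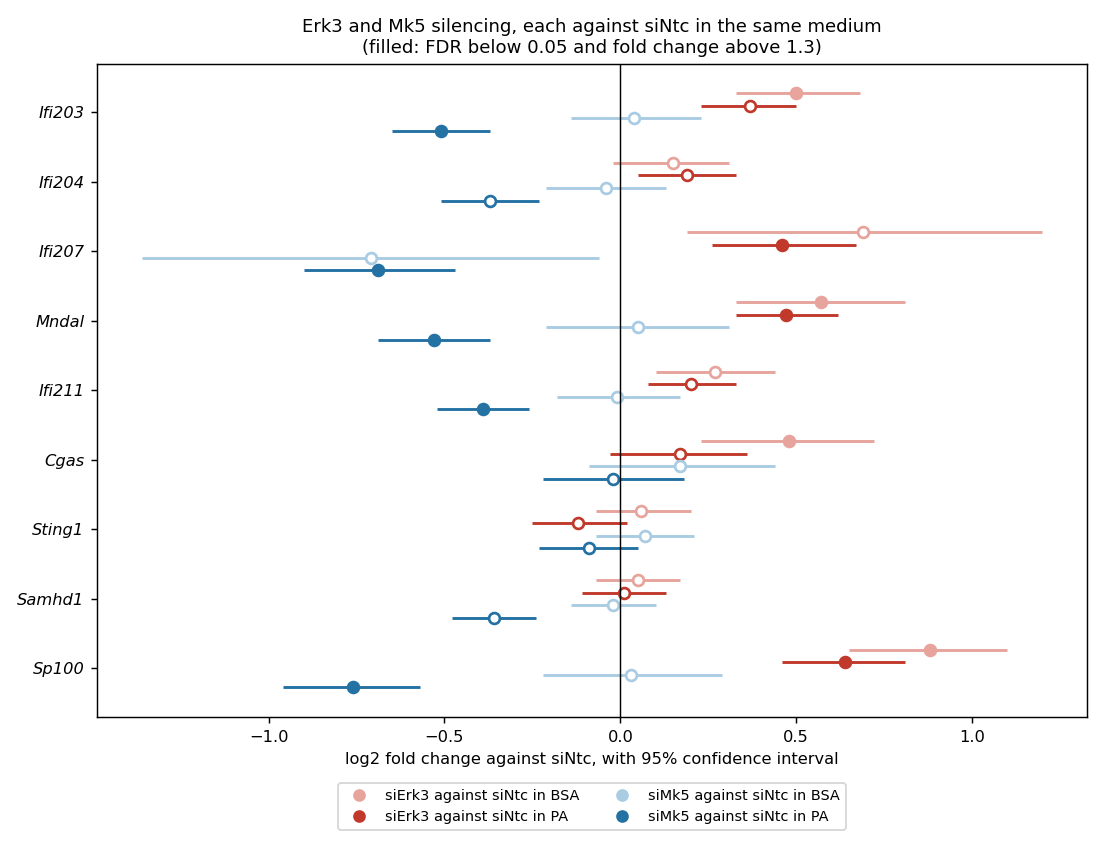
Log2 fold change against siNtc (x axis) of the 9 measured genes with siErk3 (red) and siMk5 (blue) in BSA (light) and PA (dark), with 95% confidence intervals; filled points passed both criteria. For Sp100, Ifi207, Mndal and Ifi203 the siErk3 PA values lie right of 0 and the siMk5 PA values left of it.

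Compared directly, siErk3 lay above siMk5 for much of the group. In BSA, siErk3 exceeded siMk5 for 4 of the 9 genes (Ifi207, Sp100, Mndal and Ifi203), against 0.482% of all genes. In PA, 6 of the 9 were higher (Sp100, Ifi207, Mndal, Ifi203, Ifi211 and Ifi204), against 0.854% of all genes, and Samhd1 had a log2 fold change of 0.37 (FDR = 0.000151) just under the fold criterion, which it passed by DESeq2 (0.38) and without siErk3 PA replicate 1 (0.43) or 2 (0.38) or siMk5 PA replicate 3 (0.42). The log2 differences in PA were 1.4 for Sp100 (SE 0.09), 1.15 for Ifi207 (0.10), 1.00 for Mndal (0.07), 0.88 for Ifi203 (0.07), 0.59 for Ifi211 (0.06) and 0.56 for Ifi204 (0.07). For these 6 genes, and for Samhd1, no siErk3 PA library overlapped a siMk5 PA library. The share of all genes without such overlap was not computed. In BSA the values were 1.4 for Ifi207 (SE 0.27), 0.84 for Sp100 (0.11), 0.52 for Mndal (0.11) and 0.46 for Ifi203 (0.09). The Ifi207 call in BSA was lost without siErk3 BSA replicate 1 (1.11) or siMk5 BSA replicate 1 (1.11), and that of Mndal without siErk3 BSA replicate 1 (0.46) or siMk5 BSA replicate 2 (0.52) or 3 (0.51).

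The test of whether a silencing effect differed between media was the interaction term of the same fit. For siErk3, 0 of the 9 genes passed, against 0.0367% of all genes in either direction, 0 had an unadjusted p below 0.05 by edgeR, and DESeq2 called 0. The log2 differences of the siErk3 effect, PA minus BSA, ran from -0.31 for Cgas (95% CI -0.62 to 0.00) to 0.05 for Ifi204 (-0.17 to 0.26). For siMk5, 2 of the 9 passed with a lower effect in PA (Sp100 and Ifi203), against 0.161% of all genes.

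The siMk5 effect on Sp100 was lower in PA than in BSA by 0.80 on the log2 scale (SE 0.16, edgeR FDR = 0.0156), and that on Ifi203 differed by -0.55 (SE 0.11, FDR = 0.0231). Mndal had a difference of the same size, -0.58, with an FDR of 0.125, and Samhd1 one of -0.34 (FDR = 0.11). Ifi211 and Ifi204 had -0.38 (FDR = 0.191) and -0.33 (FDR = 0.389). Ifi207 had 0.02 with a wide interval (95% CI -0.59 to 0.63), so a difference between media could not be told at its BSA counts. The Sp100 call was lost without siNtc BSA replicate 2 (-0.78) or 3 (-0.70), siMk5 BSA replicate 2 (-0.79) or 3 (-0.78), or siMk5 PA replicate 2 (-0.66). That of Ifi203 was lost without siNtc BSA replicate 1 (-0.51) or 3 (-0.54), siMk5 BSA replicate 2 (-0.57) or 3 (-0.52), siNtc PA replicate 3 (-0.48), or siMk5 PA replicate 2 (-0.48) or 3 (-0.54).

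Other PYHIN genes of the same chromosomal region were followed as a list of 10, of which 8 are in the table and 7 were tested. With PA 7 of the 7 rose in siNtc, 7 in siErk3 and 6 in siMk5 (by DESeq2 6 in each). Of all genes, 15.5%, 15.8% and 15.1% rose in these comparisons. Ifi202b, whose product has HIN domains without a pyrin domain and restrains AIM2, stood at 56.3 ± 2.03 CPM (SD, n = 3) in siNtc BSA and at 242 ± 19.5 (SD, n = 3) in siNtc PA (log2 fold change 2.10, SE 0.06). Ifi205 rose from 3, 7 and 3 counts to 78, 61 and 60 (log2 3.80, SE 0.31). Aim2, the sensor of the DNA inflammasome, rose from 0.744 ± 0.0321 to 1.49 ± 0.514 CPM (SD, n = 3; log2 0.99, SE 0.28). Ifi208 had 0 counts in each siNtc BSA library and 12, 19 and 20 in siNtc PA. Ifi213, counted among those that rose, had 0 counts in each siNtc BSA library and only 2 in each siNtc PA library. The list's median log2 fold change in siNtc was 3.80, or 2.98 with Ifi208 set to 3 counts per library in BSA and Ifi213 left out for too few counts.

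The silencing comparisons moved few of these relatives past the criteria. In PA 1 of 7 rose with siErk3, against 0.432% of all genes. It was Ifi208, from 12, 19 and 20 counts in siNtc to 59, 84 and 64 (log2 fold change 1.87, SE 0.25, edgeR FDR = 3.3e-05). In PA 1 of 7 fell with siMk5, against 0.491% of all genes. It was Ifi205, at 37, 38 and 28 counts (log2 -0.93, SE 0.20, FDR = 0.0122). Ifi202b had a log2 fold change of -0.31 with siMk5 in PA (FDR = 0.000638), under the fold criterion. In PA 4 of 7 were higher with siErk3 than with siMk5 (Ifi208, Ifi214, Ifi205 and Ifi202b), against 0.854% of all genes. In BSA the list had 0 of 7 changed with either siRNA by edgeR and by DESeq2, with 3 of 7 (siErk3) and 0 of 7 (siMk5) at an unadjusted p below 0.05. Of all genes, 0.785% passed with siErk3 and 0.0643% with siMk5 in BSA, so a count of 0 among 7 lies near the background.

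Genes that carry or tune the signal of cGAS and STING formed a list of 21, 20 of them tested. With siErk3 or siMk5 against siNtc, 0 of 20 passed in either medium by edgeR and by DESeq2. At an unadjusted edgeR p below 0.05 were 2, 2, 1 and 2 of 20 in siErk3 BSA, siErk3 PA, siMk5 BSA and siMk5 PA. Of all genes, 0.785%, 0.556%, 0.0643% and 0.547% passed in these comparisons, so a count of 0 among 20 lies near the background. With PA in siNtc, 7 of 20 rose and 4 fell, where 15.5% of all genes rose and 15.1% fell, and the list's median log2 fold change was 0.28, beside -0.03 over all genes. Among those that rose were Surf4, a cargo receptor that returns STING to the endoplasmic reticulum (305 ± 6.33 to 607 ± 25.8 CPM, SD, n = 3), and the ubiquitin ligase Trim56 (76.1 ± 2.46 to 129.5 ± 0.772 CPM, SD, n = 3). Among those that fell were Enpp1, which hydrolyses extracellular cGAMP (186 ± 6.11 to 99.6 ± 8.21 CPM, SD, n = 3), and Ikbke, a kinase related to TBK1 (log2 fold change -0.54, SE 0.12).

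In a list of 13 nucleases and clearance enzymes, 11 were tested, and 1 rose and 3 fell with PA in siNtc, where 15.5% of all genes rose and 15.1% fell. The one that rose was Adar, an editor of double-stranded RNA, from 42.0 ± 0.478 to 147 ± 7.67 CPM (SD, n = 3; log2 fold change 1.81, SE 0.06). Adar was also the one gene of this list that passed against siNtc, with siErk3 in BSA by edgeR (log2 0.39, SE 0.07, FDR = 0.000789) though not by DESeq2, and its siMk5 effect was lower in PA than in BSA (log2 difference -0.44, SE 0.09, FDR = 0.0234). The 3 that fell with PA were Dnase2a, the lysosomal DNase (log2 -0.52, SE 0.07), Rnaseh2c, a subunit of RNase H2 (log2 -0.68, SE 0.09), and Dnase1l1.

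Of 20 other DNA-binding sensors, 19 were tested, and in siNtc 4 rose and 2 fell with PA, counts near the shares over all genes (15.5% and 15.1%). Zbp1, a sensor of Z-form nucleic acid, was the one gene of the list that passed in the silencing comparisons. It stood at 1.36 ± 0.399 CPM in siNtc BSA, 2.59 ± 0.414 in siErk3 BSA and 1.23 ± 0.163 in siMk5 BSA (SD, n = 3 each). In PA it was at 20.3 ± 1.51 CPM with siNtc, 27.3 ± 3.80 with siErk3 and 10.6 ± 1.68 with siMk5 (SD, n = 3 each). Its log2 fold changes against siNtc were 0.93 (edgeR FDR = 0.0397) and 0.42 (FDR = 0.0271) with siErk3 in BSA and PA, and -0.94 (FDR = 1.86e-06) with siMk5 in PA. DESeq2 did not call the siErk3 difference in PA. Hmgb2, an abundant chromatin protein, fell with PA (log2 -0.89, SE 0.07).

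Among 11 other PML nuclear body genes, all tested, 2 rose with PA in siNtc, Isg20 (log2 fold change 1.36, SE 0.10) and Daxx (log2 0.82, SE 0.06), and none fell, a count of rises near the 15.5% of all genes that rose. With siErk3 or siMk5 against siNtc 0 of 11 passed in either medium by edgeR and by DESeq2, and the counts at an unadjusted edgeR p below 0.05 were 0 and 1 with siErk3 and 0 and 2 with siMk5 in BSA and PA. Of all genes, 0.785% and 0.556% passed with siErk3 and 0.0643% and 0.547% with siMk5 in BSA and PA, so a count of 0 among 11 lies near the background. Pml, which gives the bodies their name, was higher with siErk3 than with siMk5 in PA (log2 0.40, SE 0.07, FDR = 0.000182).

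Of 8 cytokine and interferon genes that lie downstream of the pathway, 5 were tested. By edgeR all 5 rose with PA in siNtc (4 by DESeq2), where 15.5% of all genes rose. The chemokine genes Cxcl10 and Ccl5 rose from 0.552 ± 0.226 to 85.6 ± 7.58 CPM and from 0.227 ± 0.0966 to 21.2 ± 1.68 CPM (SD, n = 3 each). Ifnb1, which encodes interferon beta, had 0 counts in all BSA libraries and 1, 2 and 4 counts in siNtc PA, 5, 7 and 5 in siErk3 PA and 1, 1 and 2 in siMk5 PA. Cxcl10 and Ccl5 fell with siMk5 in PA (log2 fold changes -0.81, SE 0.10, and -0.47, SE 0.10), and Ccl5 rose with siErk3 in PA (log2 0.56, SE 0.09). The list's median log2 fold change with PA in siNtc was 5.94, or 4.90 with Tnf set to 3 counts per library in BSA and Ifnb1 left out for too few counts.

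Among 5 inflammasome genes downstream of AIM2, 1 rose and 1 fell with PA in siNtc, near the shares over all genes (15.5% and 15.1%). Il1b rose from 2.00 ± 0.28 to 4.89 ± 0.625 CPM (SD, n = 3) and Il18 fell from 5.01 ± 0.841 to 2.77 ± 0.435 CPM (SD, n = 3). With siMk5 in PA, Il1b was at 8.16 ± 0.783 CPM (SD, n = 3), higher than with siNtc (log2 fold change 0.74, SE 0.13, edgeR FDR = 0.00134), where 5 of the 9 DNA sensor and cluster genes were lower.

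The genes whose levels followed the 9 measured genes most closely were Parp9, Gbp2b, Samd9l, Irgm1 and Lipg. Pearson's r between log2 CPM and the mean standardised level of the 9 genes was 0.98 to 0.99 over the 18 libraries, among 12725 genes with a mean of at least 1 CPM. The 18 libraries fall into a BSA and a PA set, which sets much of that value, and over the 9 PA libraries alone r was 0.93 to 0.98. Parp9, as an example, stood at 48.4 ± 5.68 CPM in siNtc PA, 55 ± 4.32 in siErk3 PA and 30.4 ± 1.93 in siMk5 PA (SD, n = 3 each).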

How the data were processed

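For 18 RNA-seq libraries the authors deposited raw counts, in read pairs per gene. Per the methods and the file headers, reads were trimmed with cutadapt 3.4 and TrimGalore 0.6.7 (quality cutoff 25), aligned to GRCm39 with STAR 2.7.9a (the labels name mm10, while the coordinates in the count file are those of GRCm39), and counted with featureCounts 2.0.0 on Ensembl 105 (reverse strand, primary alignments, mapping quality at least 3). The other deposited file has log2 values, equal to the log2 of scaled counts plus 1, and was used only for that check. Groups and replicate numbers came from the sample titles.

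The 21772 genes whose counts summed to 10 or more were scaled by TMM and fitted in 1 quasi-likelihood model with a coefficient per group in edgeR 4.0.16 (R 4.3.3), after a test on simulated data. Changed genes had an FDR below 0.05 and a fold change above 1.3, the criteria of the methods, which used DESeq2 1.34. Standard errors were the log2 fold change divided by the root of the F statistic. Levels are CPM on TMM library sizes. Symbols, start sites of the main transcripts and promoters came from GENCODE M39. The precision of a value depends on its count, with totals of 13041979 to 28496727 per library.

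The members and gene lists were chosen with earlier results of these data known. Named genes are the 10 members, list genes changed in any comparison, the 5 genes most like the members, and Mapk6, Mapkapk5 and the 18S gene as checks. Alternatives were DESeq2 1.42.0, its size factors in the edgeR fit, the 18S gene left out, filterByExpr, no filter on low counts, the FDR alone, only the groups compared, the replicate number as a block, and leaving out each library. Python 3.11.15 with pandas 2.3.3 served for the rest.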

Additional observations from a re-analysis of the deposited data

Results flagged for a closer look

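A difference between media in the response to siMk5 drew attention to 2 genes by the interaction term of the edgeR fit. For Sp100 the log2 fold change of siMk5 against siNtc was 0.03 in BSA and -0.76 in PA, a difference of -0.80 (SE 0.16, edgeR FDR = 0.0156). For Ifi203 it was 0.04 in BSA and -0.51 in PA, a difference of -0.55 (SE 0.11, edgeR FDR = 0.0231). Leaving out single libraries ended either call in several cases, while the values stayed between -0.89 and -0.66 for Sp100 and between -0.65 and -0.48 for Ifi203 over all alternatives. Groups of 3 libraries are too small for the check for outlying samples.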

How the results depend on the processing

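All 46 gene values that passed both criteria kept their direction under every alternative run. The count of genes changed by the siMk5 interaction, 2, was 1 with filterByExpr and 0 to 2 when 1 library was left out. Without a filter on low counts it was 3, as Mndal was gained (log2 difference -0.58, edgeR FDR = 0.00516). Leaving out 1 library gave counts of 2 to 4 for siErk3 against siNtc in BSA (4 in the fit of all libraries; 2 without siNtc BSA replicate 2) and 2 to 4 for siErk3 against siMk5 in BSA (4; 2 without siErk3 BSA replicate 1). It gave 2 to 4 for siErk3 against siNtc in PA, 4 to 7 for siMk5 against siNtc in PA, 7 to 8 for PA against BSA in siMk5 and 6 to 7 for siErk3 against siMk5 in PA. The counts for siMk5 against siNtc in BSA and for the siErk3 interaction were 0 throughout, and those for PA against BSA in siNtc and siErk3 were 7. Over all genes, the siErk3 interaction had 8 calls, but 72 without a filter on low counts, 0 with filterByExpr, 2 with the 18S gene left out, 4 with DESeq2 size factors and 0 to 24 when 1 library was left out, so its background share is loosely set. Without the filter, siMk5 against siNtc in BSA had 61 calls in place of 14 (34 with only the groups compared, 6 to 31 with 1 library left out), the siMk5 interaction 130 in place of 46, siErk3 against siMk5 in BSA 201 in place of 128, and siErk3 against siNtc in PA 208 in place of 121. By the FDR alone, siErk3 against siNtc had 263 in place of 171 in BSA and 186 in place of 121 in PA. The cause was not tested.

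With the replicate number as a block, every count of changed members was the same (4, 3, 0 and 5 in the siRNA comparisons with siNtc, 7, 7 and 8 for PA, 4 and 6 for siErk3 against siMk5, 0 and 2 for the interactions). Same-numbered libraries did not deviate together in a consistent direction (r from -0.61 to 0.52, mean -0.01), but that mean covers large values of both signs. In PA, r between siErk3 and siMk5 was 0.52 and 0.43 for replicates 1 and 3, and 0.05 for replicate 2. Between siNtc and siErk3 in PA it was -0.61 and -0.59 for replicates 1 and 3. Between siNtc and siMk5 in PA it was -0.5 and -0.41 for these replicates. Whether such libraries share more than a number was not tested.

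No scaling moved the median log2 fold change over all genes by more than 0.02. Depth limits Ifi207 and Ifi208 in BSA and limits Ifi213 and Ifnb1 in both media. Shared sequence limits Ifi211.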
